A study of Mus musculus with 2 samples.

Results

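Mir107, Mir103-1 and Mir103-2 are the mouse genes of the microRNA family that makes miR-103 and miR-107, each lying in an intron of a pantothenate kinase gene. The 3 genes were chosen by their GENCODE symbols among the 1973 gene identifiers of the deposited tables. The rule uses no measured value, although it was set with earlier results of these data known. Small RNA below 30 bases was sequenced from facial prominence tissue of B6NCrl mouse embryos at embryonic day 12.5, in 2 libraries which the labels give as biological replicates of 1 group. Facial prominences are outgrowths of neural crest mesenchyme under an epithelial cover, from which the face develops. Replicate 1 came from a pool of 120 embryos and replicate 2 from a pool of 88, both of mixed sex and described as healthy, with no mutant allele or treatment in the labels. With no other group, the levels of the 3 genes are compared with each other, with other miRNA genes and between the 2 libraries.

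A microRNA is cut from the hairpin of a longer transcript, and its seed, bases 2 to 8 of the mature strand, pairs with target mRNAs and lowers their output. Pantothenate kinases catalyse the first step of coenzyme A synthesis. Because the family lies inside these genes, its hairpins can be made from the same primary transcripts as enzymes of lipid and energy metabolism. In mouse tissues miR-103 and miR-107 are known for their action on insulin sensitivity through caveolin-1, and in human cancer cells for repressing the microRNA-processing enzyme Dicer.

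The mature strands show what distinguishes the genes, and are given from RefSeq on GRCm38.p6, 5′ to 3′, with the seed in capitals. The 3p strand is the main product known from these hairpins.
miR-107-3p of Mir107: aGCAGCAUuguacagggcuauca
miR-103-3p of Mir103-1 and of Mir103-2: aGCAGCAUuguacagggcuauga
miR-107-5p of Mir107: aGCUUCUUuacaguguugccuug
miR-103-1-5p of Mir103-1: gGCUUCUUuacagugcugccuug
miR-103-2-5p of Mir103-2: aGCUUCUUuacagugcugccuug

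The 3p strands of Mir103-1 and Mir103-2 were identical over all 23 bases. Against miR-103-3p, miR-107-3p differed by the single substitution G22C, counted from 1 at the 5′ end, so the whole seed was shared. Among 1738 mature entries of the RefSeq table, the seed GCAGCAU stood only in the 3p strands of these 3 genes. The 5p strands shared the seed GCUUCUU and differed by G1A between Mir103-1 and Mir103-2 and by C16U between Mir103-2 and Mir107.

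The hairpins are printed to show how far the identity reaches, with the longest run common to all 3 genes, 24 bases, in capitals.
Mir107 hairpin: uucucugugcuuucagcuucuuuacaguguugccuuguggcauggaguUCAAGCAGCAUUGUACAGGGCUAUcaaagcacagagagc
Mir103-1 hairpin: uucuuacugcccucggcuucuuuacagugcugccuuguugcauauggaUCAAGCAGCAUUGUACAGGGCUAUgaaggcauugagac
Mir103-2 hairpin: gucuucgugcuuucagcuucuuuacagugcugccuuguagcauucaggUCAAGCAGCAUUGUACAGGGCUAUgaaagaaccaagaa

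The run in capitals opened before the 3p strand and ended just short of the base by which miR-107-3p differs. Between Mir103-1 and Mir103-2 the longest shared run was 27 bases, which covers the whole 3p strand. Over the full hairpins, Mir107 and Mir103-2 had 83.9% identical bases, Mir107 and Mir103-1 80.5%, and Mir103-1 and Mir103-2 80.2%. The hairpins with the identical 3p strand were thus no closer to each other over their full length than either was to Mir107. Folded with RNAfold, Mir107 had a minimum free energy of -41.2 kcal/mol, Mir103-1 -35.8 and Mir103-2 -31.8, against a median of -32.0 over the 1005 hairpins of the table. Those hairpins had a shorter median length, 79 bases. Per base the values were -0.474 kcal/mol for Mir107, -0.416 for Mir103-1 and -0.370 for Mir103-2, against a median of -0.406. The 3 hairpins were 86 or 87 bases long, so their counts are compared without a length correction.

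Mir107 (ENSMUSG00000065594.1) lay at chromosome 19, positions 34820687 to 34820773 on the minus strand of GRCm38, the assembly that mm10 denotes. It was in intron 5 of 6 of Pank1, in the coding transcripts Pank1-201 and Pank1-202, 326 bases after the preceding exon of an intron of 7282 bases. Mir103-1 (ENSMUSG00000065553.1) lay at chromosome 11, positions 35782396 to 35782481 on the plus strand, 688 bases into the 1740 bases of intron 5 of 6 of Pank3-201. Mir103-2 (ENSMUSG00000065563.1) lay at chromosome 2, positions 131288052 to 131288137 on the plus strand, 454 bases into the 5801 bases of intron 5 of 6 of the coding transcript Pank2-204. The family thus sat in the same numbered intron of all 3 kinase genes, on the host's strand, and in these transcripts nearer to the preceding exon than to the following exon. Some other annotated transcripts of Pank1 and Pank2 gave the intron another number. In the coding transcript Pank2-203, Mir103-2 lay 13788 bases after the preceding exon and 5261 before the following exon. No gene besides the host overlapped any of the 3.

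The level of the family as counted came almost wholly from Mir107, the gene in Pank1. Counts are reads on the gene's own strand, and levels are in CPM, the count divided by the library's sum over all listed genes and scaled to 1000000. That sum was 4719337 reads in replicate 1 and 5929220 in replicate 2. Intervals on levels are exact Clopper-Pearson intervals at the 95% level and cover counting error only.

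Mir107 had 7886 reads in replicate 1 and 11574 in replicate 2. These were 1671 CPM (interval 1634 to 1708) and 1952 CPM (interval 1917 to 1988), a mean of 1812 ± 199 CPM (SD, n = 2). The libraries' intervals did not overlap, so the spread between libraries exceeded the counting error of this deeply covered gene. Each pool gave 1 library, so a difference of pools and one of library preparation cannot be told apart.

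Mir103-1 had 27 and 35 reads in replicates 1 and 2, or 5.72 CPM (interval 3.77 to 8.32) and 5.90 CPM (interval 4.11 to 8.21), with a mean of 5.81 ± 0.129 CPM (SD, n = 2). The SD was 2.21% of the mean, while the counting error of so few reads was 19.2% in replicate 1 and 16.9% in replicate 2, so that SD understates the uncertainty of the level.

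Mir103-2 had 343 and 540 reads in replicates 1 and 2, or 72.7 CPM (interval 65.2 to 80.8) and 91.1 CPM (interval 83.6 to 99.1), with a mean of 81.9 ± 13.0 CPM (SD, n = 2). Its values lay between those of Mir107 and Mir103-1 in both libraries, with no overlap of their intervals. In every library the order was Mir107, Mir103-2, Mir103-1.

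**Figure D1:**
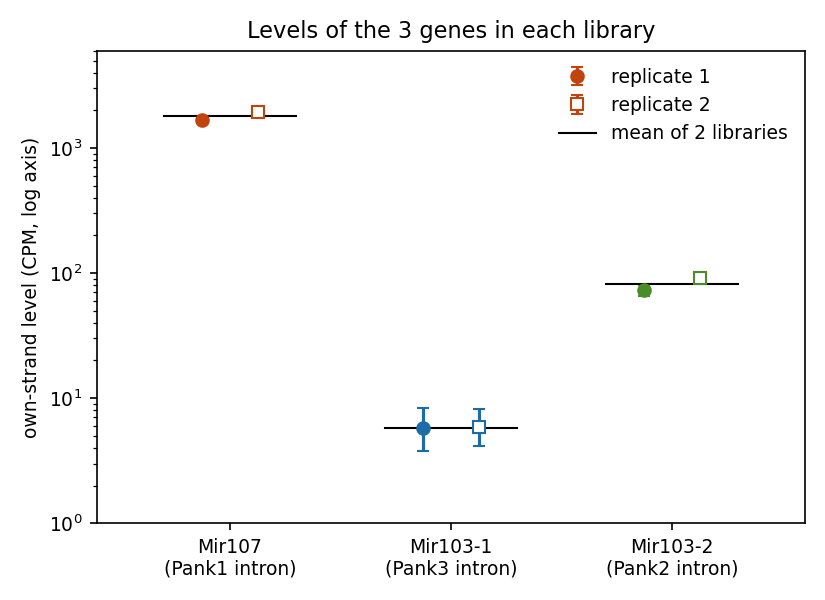
Own-strand levels of Mir107, Mir103-1 and Mir103-2 in CPM on a log axis, with filled circles for replicate 1, open squares for replicate 2, bars for exact 95% counting intervals and a line at the mean. Mir107 stood near 1812 CPM, Mir103-1 near 5.81 and Mir103-2 near 81.9, and the gaps between genes were far wider than those between libraries.

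Together the 3 genes had 1749 CPM in replicate 1 and 2049 in replicate 2, on average 1899 ± 212 CPM (SD, n = 2). Mir107 gave 95.5% of these reads in replicate 1 (exact interval 95.0 to 96.0) and 95.3% in replicate 2 (interval 94.9 to 95.6). Mir103-1 gave 0.327% (interval 0.216 to 0.475) and 0.288% (interval 0.201 to 0.400), and Mir103-2 gave 4.15% (interval 3.73 to 4.61) and 4.44% (interval 4.09 to 4.83). The shares of the family as counted were thus close in the 2 libraries. The intervals of each gene overlapped, which is no test of a difference. Reads that mapped to several places are not in these shares.

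The count of Mir107 was 292 times that of Mir103-1 in replicate 1 (exact interval 201 to 443) and 331 times in replicate 2 (interval 238 to 475), on average 311 ± 27.3 (SD, n = 2). The count of Mir103-1 was 0.0787 times that of Mir103-2 in replicate 1 (interval 0.0511 to 0.117) and 0.0648 times in replicate 2 (interval 0.0447 to 0.0913), on average 0.0718 ± 0.00983. The loci with the identical 3p strand therefore differed in their counts by more than counting error and by more than the spread between the libraries.

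Detection was set at 10 counts or more in each library, a limit of 2.12 CPM for replicate 1 and 1.69 CPM for replicate 2. All 3 genes were among the 395 detected. By mean level Mir107 ranked 77 (80 in replicate 1 and 77 in replicate 2), Mir103-1 ranked 342 (342 and 339) and Mir103-2 ranked 218 (227 and 215). Mir107 was higher than 80.5% of detected genes, Mir103-1 than 13.4% and Mir103-2 than 44.8%. The members of this small family thus stood far apart in rank, from 77 to 342 among the 395 detected genes. These ranks rest on counts that leave out reads mapping to several places.

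**Figure D2:**
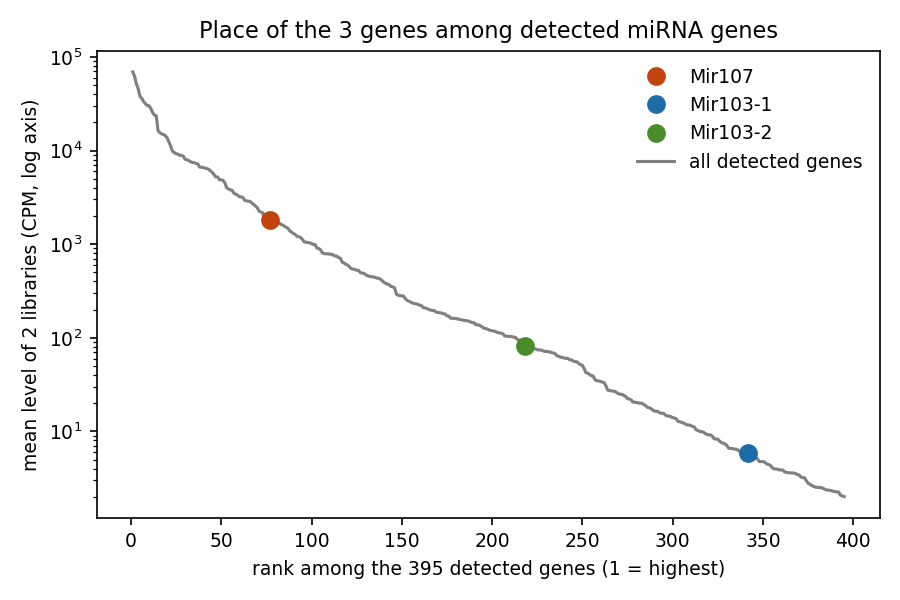
Mean level of the 2 libraries in CPM on a log axis against rank, with the 3 genes as coloured points and all 395 detected genes as the grey line. Mir107 lay at rank 77 in the upper part, Mir103-1 at rank 342 in the low tail and Mir103-2 at rank 218 near the middle.

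The genes nearest to each in mean level over the 2 libraries differed from it by less than the SD between libraries. Mir107 stood between Mir28a (1827 ± 98.4 CPM) and Mir16-1 (1831 ± 273 CPM) above and Mir337 (1801 ± 9.64 CPM) and Mir455 (1772 ± 189 CPM) below, where ± is the SD with n = 2. Mir16-1, a member of the miR-15/16 family that restrains the cell cycle, is related to Mir107 by its seed. Mir455 is known from cartilage.

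The neighbours of Mir103-1 were Mir147 (5.98 ± 1.56 CPM), Mir5618 (5.89 ± 2.64 CPM), Mir7666 (5.66 ± 0.817 CPM) and Mir3097 (5.66 ± 2.01 CPM). Mir103-2 stood among Mir877 (93.03 ± 15.6 CPM), Mir19a of the miR-17-92 cluster (93.00 ± 3.92 CPM), Mir146 (81.7 ± 20.6 CPM) and Mir6944 (79.3 ± 17.7 CPM). In every such pair the gap between the means was smaller than the larger SD of the pair, although Mir877 was above Mir103-2 in each library, at 82.0 and 104 CPM.

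How the counts were made bears on the gaps within the family. Reads that mapped to several places were held in an entry of their own, 2970119 reads or 26.0% of replicate 1 and 3575159 reads or 27.9% of replicate 2, and the entries and gene counts added up to the same library total in each strand column. A 3p read of Mir103-1 or Mir103-2 that starts at the annotated 5′ end was found in both hairpins up to a length of 24 bases and in only 1 hairpin from 25 bases on. A 3p read of Mir107 was shared by all 3 hairpins up to 21 bases and found in Mir107 alone from 22 bases on.

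Among RefSeq hairpins, the full 23-base miR-107-3p could therefore be placed by its sequence. The full 23-base miR-103-3p could not be placed at either of its loci. The rest of the genome was not searched. Reads of the 5p strands were found in 1 hairpin at every length from 16 to 28 bases, for each of the 3 genes. Which strand gave the counted reads is not in the tables, so the reads of Mir103-1 and Mir103-2 could not be divided into 5p and 3p strands. The part of read sharing in the difference between Mir107 and both Mir103 genes was not tested. How mismatches were allowed in mapping was not given in the sources used here, and a read of miR-103-3p is 1 base away from miR-107-3p.

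**Figure D3:**
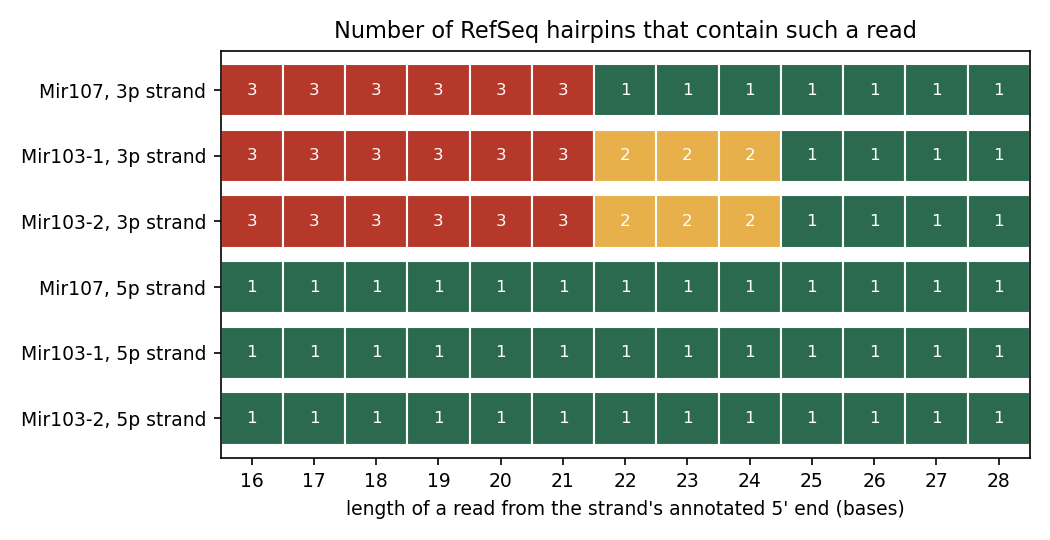
Number of RefSeq miRNA hairpins, printed in each cell, that contain a read of the given length in bases from the annotated 5′ end of each mature strand of Mir107, Mir103-1 and Mir103-2. The 3p reads of Mir107 became its own at 22 bases, those of Mir103-1 and Mir103-2 at 25 bases, and the 5p reads were never shared from 16 bases on.

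No position on the other strand added to these genes. Mir107, Mir103-1 and Mir103-2 each had 0 reads on the opposite strand in both libraries. The limit of such a 0 is 3 reads, or 0.636 CPM for replicate 1 and 0.506 CPM for replicate 2. Each value above is thus the whole count of its gene in the deposited tables.

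Between the libraries, Mir107 and Mir103-2 were somewhat lower in replicate 1 than in replicate 2, and Mir103-1 was too sparse to show a difference of such size. A two-sided exact binomial test set each gene's share of reads in replicate 1 against that of the TMM-scaled libraries. The p-values were adjusted by the Benjamini-Hochberg method over all 395 detected genes. A gene was called at an adjusted p under 0.05 with an absolute log2 ratio of at least 1. The test covers counting error alone and compares these libraries, not conditions.

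With replicate 1 set over replicate 2, Mir107 had a log2 ratio of -0.22, with an interval of -0.26 to -0.18 and an adjusted p of 8.34e-25 by the exact binomial test. Mir103-1 had a log2 ratio of -0.04 (interval -0.82 to 0.73, exact binomial adjusted p = 1). Mir103-2 had a log2 ratio of -0.32 (interval -0.52 to -0.12, exact binomial adjusted p = 0.00295). Of the 3 genes, 0 were called, where 4.05% of detected genes were. With no limit on size, Mir107 and Mir103-2 were lower in replicate 1 beyond counting error, where 27.1% of detected genes were lower in that way and 51.9% differed in either direction.

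These gaps were of the usual size in the tables, where the median absolute log2 ratio over the 395 detected genes was 0.23. Within 1.5-fold were 341 of them. By edgeR, the biological coefficient of variation common to all genes came to 0.190. In edgeR's exact test with a coefficient set at 0.2, the adjusted p of each of the 3 genes was 1. That coefficient lies near the 0.190 taken from these same libraries, so a gap of usual size could hardly pass. The test is therefore no separate support. The log2 ratios of Mir107 and Mir103-2 had overlapping intervals, and a difference between these loci was not tested.

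**Figure D4:**
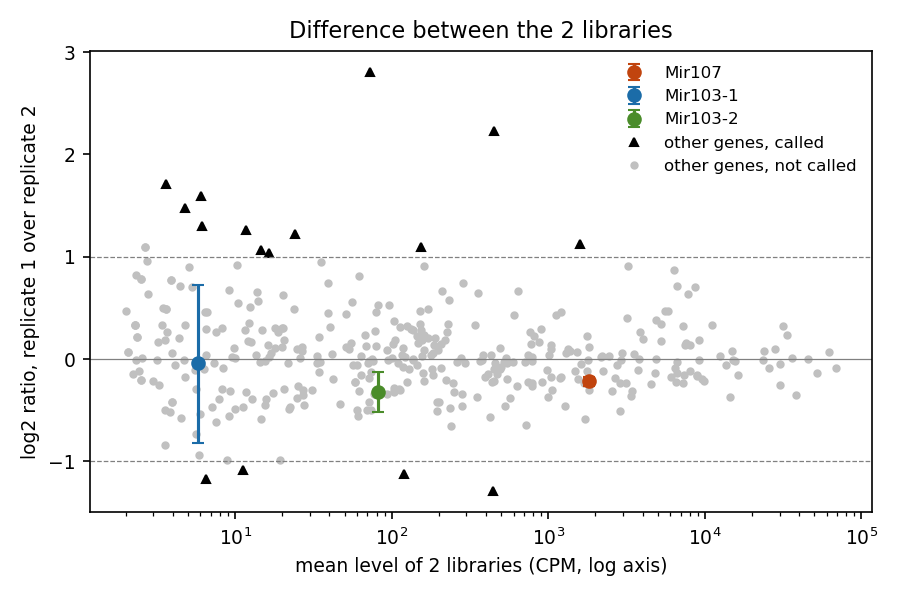
The log2 ratio of replicate 1 over replicate 2 against mean level in CPM on a log axis, with exact 95% counting intervals on the 3 genes, triangles for the 16 called genes, grey points for the other genes and dashed lines at the 2-fold limit. Mir107 at -0.22, Mir103-1 at -0.04 and Mir103-2 at -0.32 lay inside the band of uncalled genes, with the widest interval on Mir103-1.

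Markers of tissue layers were checked beside this. All 6 mesenchyme and cartilage genes and all 7 epithelial genes were detected, and 2 of the 3 neural genes were too. The neuronal Mir137 had 794 and 784 CPM in replicates 1 and 2, and Mir9-3 had 16.7 and 11.3 CPM. Mir124a-1, a gene with copies elsewhere, had 0 counts in both libraries. Every annotated mature strand of Mir9-3, and of Mir199a-1, Mir199a-2 and Mir199b among the mesenchyme genes, is identical at another hairpin. Part of their reads may thus have been left uncounted, which was not tested. The mesenchyme and cartilage genes summed to 6.47% of counts in replicate 1 and 6.42% in replicate 2. The epithelial genes summed to 3.08% and 3.58%, and 6 of the 7 were lower in replicate 1 beyond counting error. So were 2 of the 6 mesenchyme and cartilage genes, 2 of the 3 heart and skeletal muscle genes and 27.1% of all detected genes. Of the 3 erythroid genes 1 was, Mir451a. Higher in replicate 1 beyond counting error were Mir140, Mir455, Mir200a, Mir9-3, Mir208a and the endothelial Mir126a. Mir208a, with 16.5 and 6.91 CPM in replicates 1 and 2, was also called. Mir126a made up 2.90% and 2.72% of counts. The summed levels were 0.0223% and 0.0331% for the 3 erythroid genes and 0.110% and 0.150% for the 3 genes of heart and skeletal muscle. Among the erythroid genes, Mir451a had 186 and 294 CPM, Mir144 15.5 and 19.6 CPM and Mir486 22.0 and 17.9 CPM. The liver gene Mir122 had 13.8 and 13.5 CPM. The part of the pools' make-up in the difference of Mir107 was not tested. In whole tissue, fewer cells of a type and less RNA per cell cannot be told apart.

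The family belongs to a wider group of microRNAs with the letters AGCAGC near the 5′ end, to which miR-15 and miR-16 also belong, and which acts on the cell cycle and metabolism. RefSeq held 15 mature entries with AGCAGC at base 1 or base 2. At base 1 it stood in 3 entries, those of Mir107, Mir103-1 and Mir103-2, and at base 2 in 12. The shift is shown by 4 strands of the group from RefSeq on GRCm38.p6, with the seed in capitals.
miR-107-3p: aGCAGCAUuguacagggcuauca
miR-16-5p of Mir16-1 and Mir16-2: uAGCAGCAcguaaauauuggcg
miR-322-5p of Mir322: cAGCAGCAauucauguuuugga
miR-503-5p of Mir503: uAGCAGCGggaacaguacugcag

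The seed of miR-103 and miR-107 thus begins 1 base further along the shared letters than that of miR-16-5p or miR-322-5p. The list of other genes of the group held the known miR-15, miR-16, miR-195, miR-497, miR-322 and miR-503 genes, and left out Mir6342, Mir6353 and Mir6419, whose entries also hold the letters at base 2. Mir497 was not analysed here under its own symbol. Of the genes listed, 9 were measured and 7 detected. The genes without detection were Mir195b and Mir497b, and Mir497b does not carry the shared letters on its annotated strand. The X-linked Mir322, the mouse counterpart of human miR-424, stood far above the rest, with 33299 and 42672 CPM in replicates 1 and 2.

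Mir15a, which is transcribed with Mir16-1, had 3806 and 3813 CPM, and Mir16-1 had 1638 and 2024 CPM. Mir15b of the paralogous cluster in Smc4 had 1408 and 1534 CPM, and its partner Mir16-2 had 400.5 and 469 CPM. Mir503 had 1320 and 1274 CPM, and Mir195a 496 and 650.2 CPM. By these counts Mir107 lay within this range, close to Mir16-1, whereas Mir103-1 and Mir103-2 lay below every detected gene of the group.

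The summed level of the family as counted was 0.175% of counts in replicate 1 and 0.205% in replicate 2. The other genes of the group summed to 4.24% and 5.24%. The median level of the 7 detected genes was 1471 CPM, beside 122 CPM over all detected genes. Of the 7, 0 were called between the libraries, where 4.05% of detected genes were. Lower in replicate 1 beyond counting error were 5 of the 7, where 27.1% of detected genes were, with log2 ratios from -0.39 for Mir195a to -0.12 for Mir15b. Mir16-1 and Mir16-2 share the whole miR-16-5p, so part of their reads may also have been left uncounted, which was not tested.

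Other microRNA families also lie in introns of paralogous genes, and all 11 genes of 5 such families were detected. In the miR-26 family of the Ctdsp phosphatase genes, the gene without a shared strand also had the highest count. Mir26b, whose strands are its own, had 24699 and 26388 CPM in replicates 1 and 2. Mir26a-1 had 8.05 and 8.60 CPM and Mir26a-2 had 39.4 and 45.2 CPM, and these genes carry the same miR-26a-5p. By these counts Mir26b, like Mir107, stood far above both loci that share a mature strand. Part of the reads of Mir26a-1 and Mir26a-2 may have been left uncounted, since reads mapping to several places were held apart. The part of this in the gap was not tested.

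In 2 families both loci carry an identical strand. Mir128-1, in R3hdm1, had 168 and 133 CPM and Mir128-2, in Arpp21, had 86.03 and 71.3 CPM. Mir218-1, in Slit2, had 13.3 and 12.0 CPM and Mir218-2, in Slit3, had 66.7 and 76.2 CPM. Part of the reads of these genes may likewise have been left uncounted, which was not tested.

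The families with distinct strands at each locus were Mir208a and Mir208b of the cardiac myosin genes and Mir204 and Mir211 of the Trpm channel genes. Mir208a had 16.5 and 6.91 CPM, against 78.8 and 45.0 CPM for Mir208b, and Mir204 had 559 and 875 CPM, against 256 and 631 CPM for Mir211. All 4 of these genes had lower levels than Mir107. Over the 11 genes the median level was 71.5 CPM, beside 122 CPM over all detected genes. Of the 11, 2 genes were called between the libraries, Mir208a and Mir211, where 4.05% of detected genes were.

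**Figure D5:**
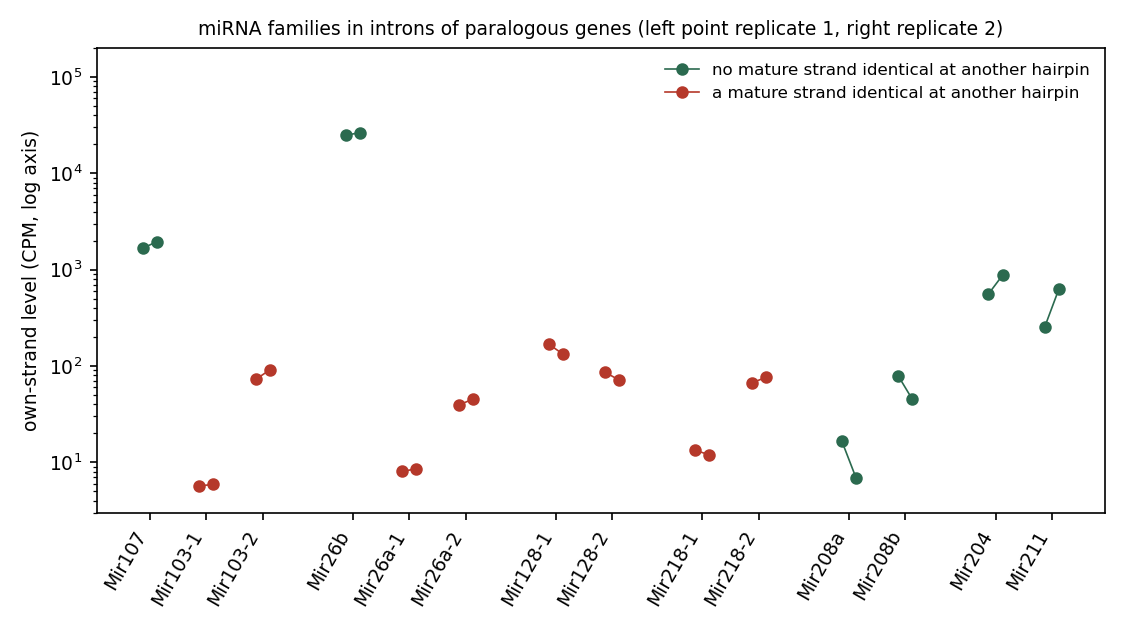
Own-strand level in CPM on a log axis for Mir107 and the Mir103 genes and the 5 other families in introns of paralogous genes, with replicate 1 as the left and replicate 2 as the right point of each pair and red for genes with a mature strand identical at another hairpin. Mir107 and Mir26b stood above both relatives with shared strands. Of the other genes whose strands are their own, Mir208a and Mir208b were below 100 CPM, and Mir204 and Mir211 were between 256 and 875 CPM. Of the genes with a shared strand, only Mir128-1 was above 100 CPM, at 168 and 133 CPM.

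Across the table, 916 genes could be matched to RefSeq mature strands by position. Of these, 87 had a mature strand identical at another hairpin, Mir103-1 and Mir103-2 among them. In this set 47 genes (54.0%) were detected, with a median of 74.4 CPM over those detected. Among the 829 genes with no such strand, which include Mir107, 310 (37.4%) were detected, with a median of 159 CPM. Over all genes, detected or not, the order of the medians was the other way round, with 5.81 CPM for the 87 genes and 0.614 CPM for the 829. Mir103-1 at 5.81 CPM and Mir103-2 at 81.9 CPM fell on either side of the median of detected genes with a shared strand.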

How the data were processed

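For each library the authors deposited raw counts of reads per miRNA gene, made on assembly mm10 and GENCODE M4 according to the deposited descriptions. Which aligner, counter and trimming were used is not given in the sources used here. The tables gave a count for both strands and for each strand, and the strand column that held 96.8% (replicate 1) and 96.7% (replicate 2) of gene reads was taken as the own strand. Entries that name no gene stayed out of library sizes. Of all reads, 25.7% and 19.4% were unmapped and 5.57% and 4.72% lay outside the listed genes. Each count joins both arms of a hairpin.

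Symbols and positions came from GENCODE M21 on GRCm38, which named 1894 of the 1973 identifiers, and sequences from RefSeq. Hairpins were aligned with Biopython 1.88 and folded with RNAfold 2.7.2. TMM factors, DESeq2 size factors and the common coefficient came from edgeR 4.0.16 and DESeq2 1.42.0, and exact tests from scipy 1.17.1. The exact binomial test was tried on simulated data for 395 genes, of which 200 were set to differ 3-fold. It called 98.0% of the changed genes and 0 of the others. The simulated counts held counting error alone, without the further spread between libraries of the real data. The genes named were the members, the 2 detected genes next above and below each in mean level, and the lists described. Members and lists were chosen with earlier results of these data known. Replicates were separate pools, and the labels give no molecular identifiers, so intervals cover counting error only.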

Additional observations from a re-analysis of the deposited data

Results flagged for a closer look

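A signal stood in a strand column that the comparisons do not use. Mir497b, listed with the genes that carry AGCAGC, had 3349 reads in replicate 1 and 5092 in replicate 2 on the strand opposite to it, above the limit that a count of 0 allows, and 2 and 1 on its own strand. RefSeq places miR-497a-5p of Mir497, which carries AGCAGC at base 2, on that opposite strand at chromosome 11, positions 70234730 to 70234751 on GRCm38.p6. On the same strand lies miR-497a-3p, at positions 70234770 to 70234790, which does not carry these letters near its 5′ end. It overlaps miR-497b, at positions 70234763 to 70234786. Which mature strand gave the reads is not in the tables. These reads are in no sum of the group given above.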

How the results depend on the processing

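The levels were set by the denominator. Scaled to 1000000 reads of the whole library, Mir107 stood at 798, Mir103-1 at 2.55 and Mir103-2 at 36.1, and the sum of the 3 at 836, since less than the whole library lay on genes. With both strands summed, Mir103-1 stood at 5.62 CPM, beyond its small SD. Under the TMM and DESeq2 scalings the level of each gene stayed within 1 SD of its mean. Without replicate 1 and without replicate 2 the levels ranged from 1671 to 1952 CPM for Mir107, 5.72 to 5.90 for Mir103-1 and 72.7 to 91.1 for Mir103-2. The ratio of Mir107 over Mir103-1 ranged from 292 to 331 and that of Mir103-1 over Mir103-2 from 0.0648 to 0.0787. With 2 libraries these ranges are the values of each library and say nothing of stability. The count of genes that differ between the libraries was 16. It was 24 with no count minimum and 6 with at least 100 counts in both libraries, where fewer genes were tested. With edgeR's exact test at a fixed coefficient of 0.2, which adds spread between libraries, it was 2. The differences of the 3 genes kept their sign and stayed uncalled under every alternative run. Mir103-1 gave no value at the minimum of 100 counts. With both strands summed the ranks were 83 for Mir107, 352 for Mir103-1 and 227 for Mir103-2. The 27 and 35 reads of Mir103-1 limit its precision. No paired analysis was possible because the libraries form 1 group.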
